A study of Mus musculus with 64 samples.

Results

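The RNA-seq libraries described here came from V6.5 mouse embryonic stem (ES) cells labelled wild type (WT), in which no protein carries a degron tag. The comparison sets the WT libraries of 12 h of auxin (indole-3-acetic acid, IAA, at 500 µM) against the untreated WT libraries, across all genes in the table of raw counts. Those columns hold 4 of the 64 samples of the series, with 2 libraries in each group.

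In the wider study, each of the 12 subunits of RNA polymerase II (RPB1 to RPB12) was fused to an auxin-inducible degron in its own ES cell line, and IAA was used to remove the subunit. Per the labels' protocols, the plant receptor protein OsTir1 was induced over 12 h with doxycycline (2 µg/ml there, 1 µg/ml in the text on the series), and IAA was then added or left out for a further 12 h. All the cells grew with 15% serum, 3 µM CHIR99021, which inhibits the kinase GSK3, and 0.5 µM PD0325901, which inhibits the kinase MEK, and all were mixed with 10% Drosophila S2 cells before extraction.

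The WT IAA group is labelled as a degron sample although WT cells hold no degron, and its libraries are called the WT IAA libraries here. The sources used here do not say whether WT cells carried OsTir1. The labels call the other group untreated, so whether it received doxycycline is not clear from them, and a difference between the groups cannot be told apart from doxycycline if it did not. They also do not say if the pair of libraries in each group had its own cultures, and p-values then measure only the spread between libraries of a group. That spread was estimated over all 52 libraries of the 12 h experiment, not from the WT libraries alone.

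Auxin acts in plants by joining the receptor TIR1 to proteins that hold a degron, which are then ubiquitinated and destroyed. Animal cells have no such receptor, but IAA is also a tryptophan metabolite, and indoles of this kind can bind the aryl hydrocarbon receptor, a ligand-activated transcription factor that switches on Cyp1a1. Mouse ES cells keep their naive state under Wnt signalling and low ERK signalling, and the inhibitors of GSK3 and MEK in the medium act on these pathways.

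The WT libraries held 4533897 and 4366545 counts after IAA and 5207199 and 5128109 counts untreated, within the range of 3399838 to 7164928 over the 52 libraries of the 12 h experiment. Mitochondrial-genome mRNAs took 1.42% and 1.46% of the counts in the IAA libraries and 1.299% and 1.37% in the untreated libraries. The ES cell markers fixed for the label were all tested, and their summed levels were 5518 and 5342 counts scaled to a common library size (CPM) in the IAA libraries against 6159 and 5875 CPM in the untreated libraries. Summed levels of primitive endoderm markers were 19.15 and 16.1 CPM against 11.5 and 11.9 CPM, with Ttr and Afp at 0 in every WT library. Feeder fibroblast markers summed to 31.3 and 29.5 CPM in IAA libraries against 24.8 and 18.1 CPM in untreated libraries, with Col3a1, Postn, Lum, Dcn, Prrx1 and S100a4 at 0. Pdgfrb made up most of that sum in the IAA libraries, at 20.9 and 18.8 CPM against 10.1 and 8.17 CPM untreated. Trophectoderm markers summed to 24.1 and 22.3 CPM against 21.1 and 23.3 CPM, and 2-cell-like markers to 14.0 and 19.4 CPM against 11.5 and 15.6 CPM, IAA libraries first in each pair. Of the 12 ES cell markers 5 were called lower by edgeR and 0 higher, against 0.842% and 0.803% of all genes tested. Of the primitive endoderm markers 6 of 12 were tested, of the trophectoderm markers 6 of 8, of the 2-cell-like markers 4 of 8 and of the feeder markers 5 of 12. Each sum covers the tested markers only. No tested marker of primitive endoderm, trophectoderm or the 2-cell-like state passed the edgeR test in WT cells. These marker lists are shorter than the gene lists used later. The part of primitive endoderm, trophectoderm, 2-cell-like or feeder cells in the results below was not tested.

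A small set of genes moved in WT cells after IAA, and most moved by less than 2-fold. Of 17928 genes tested, 295 were called, meaning an adjusted p under 0.05 in edgeR's quasi-likelihood test, which is 1.65% of all genes. After IAA 144 genes rose (0.803%) and 151 fell (0.842%). These shares are the background for each count of called list members below. The median size of a called change was 0.63 on the log2 scale, the smallest was 0.27, and 76.9% of the called genes changed by less than 2-fold. At 2-fold or more, 40 genes rose and 28 fell. Protein-coding genes made up 278 of the called genes, or 94.2%, against 79.5% of all genes tested. The share called was 0.173% of genes under 1 CPM and 3.58% of genes at 100 CPM or more. The median log2 fold change over all genes was -0.0050, and by chromosome the medians ranged from -0.05 to 0.01. Of the 17928 genes 8501 lay above 0 and 9080 below.

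The number of calls changed with the libraries in the fit and with the scaling. When the 4 WT libraries were fitted alone, which also changed the genes tested to 13883, 1060 genes were called, with 289 of the 295 among them. Without the first or the second IAA library 100 and 89 genes were called, and without the first or the second untreated library 105 and 93 genes. Scaled on the 13 mitochondrial-genome mRNAs in place of all genes, 4 genes were called. Of the 68 called genes named here 66 lost the call on that scale with the same sign. Of all 94 named genes, called or not, 1 changed sign. These mRNAs took 0.534% and 1.72% of the counts in the RPB3 IAA libraries, which enter the shared estimate of the spread. What lowered the number of calls was not tested. Of 68 called genes named here, 19 kept the call without each of the 4 libraries in turn, and these were Ak4, Cdkn1a, Cdx1, Etv4, Gss, H3f3b, L1td1, Lefty2, Ngfr, Pdk1, Rasgrp1, Sf3b3, Slc7a3, Tdgf1, Tdh, Utf1, Zfp42, Zfp57 and Zic2. The other 49 lost it without at least 1 library. Before adjustment, 2284 genes (12.7%) had a p under 0.05.

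**Figure D1:**
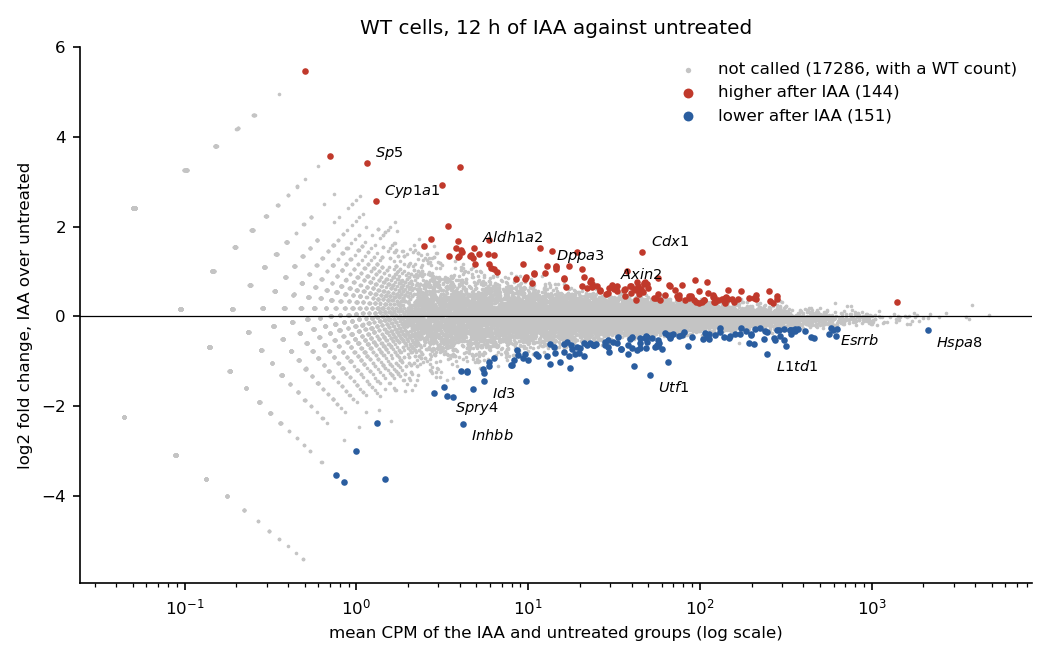
Each point is a gene of the WT cells with a count in at least 1 of the 4 libraries, placed by its mean level in CPM (log scale) and its log2 fold change, IAA over untreated. Red points are the 144 genes called higher and blue points the 151 called lower, and most called genes above 100 CPM lie within 1 unit of 0.

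Of the targets and feedback inhibitors of the FGF-ERK pathway, 4 of 20 were lower after IAA and 16 were not called. In this pathway FGF4 from the ES cells binds FGF receptors, and RAS, RAF, MEK and ERK kinases pass the signal to transcription factors. None of the 20 rose by edgeR or DESeq2, and over all genes tested edgeR called 0.842% lower and 0.803% higher. The list's median log2 fold change was -0.25, and 16 members lay below 0, as did 9080 of all 17928 genes tested. With libraries scaled on the mitochondrial mRNAs alone, no member of this list or of the Wnt target list was called, and without the first untreated library Etv4 alone of this list was.

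Spry4, a Sprouty inhibitor of receptor signalling that ERK induces, had 1.596 and 1.44 CPM in the IAA libraries against 5.66 and 4.79 CPM in the untreated libraries. It lies on chromosome 18 at 38586247-38601415 (mm10, minus strand), and its log2 fold change was -1.77 ± 0.35 (SE, edgeR adjusted p = 0.00195). Dusp6, the phosphatase that removes the activating phosphates of ERK, had 2.59 and 3.92 CPM after IAA against 8.49 and 7.10 CPM untreated, a log2 fold change of -1.26 ± 0.27 (SE). Etv4, an ETS transcription factor downstream of FGF, had 28.9 and 26.2 CPM after IAA and 49.2 and 48.8 CPM untreated, on chromosome 11 at 101769742-101785371. Its log2 fold change was -0.83 ± 0.12 (SE, edgeR adjusted p = 2.46e-05). Etv5, its close relative, had 225 and 205 CPM after IAA and 276 and 273 CPM untreated, a log2 fold change of -0.35 ± 0.079 (SE). In none of these genes did an IAA library reach the level of an untreated library. The groups did not overlap, in either direction, in 46.8% of all genes tested.

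Other genes of the list did not pass. The log2 fold change of Spry2 was 0.10 ± 0.12, that of Ccnd1, which encodes cyclin D1, was -0.22 ± 0.085, and that of the immediate-early gene Egr1 was 0.70 ± 0.42 at 1.24 to 3.59 CPM (SE in each). Of 25 tested ligands, receptors and kinases of the pathway, 0 passed by edgeR in either direction, with a median of -0.06, where 4 higher and 2 lower had an unadjusted p under 0.05 and DESeq2 called 1 lower. Fgf4 had 345 and 341 CPM after IAA against 378 and 357 CPM untreated, which did not pass. Outside these lists, Fgf3, which encodes another FGF ligand, rose to 7.78 and 9.07 CPM in IAA libraries, against 3.19 and 3.20 CPM in untreated libraries. Rasgrp1, an exchange factor that activates RAS, rose to 25.5 and 30.7 CPM in IAA libraries, against 9.91 and 10.8 CPM in untreated libraries. Eras, a RAS-like GTPase gene of ES cells, fell to 5.78 and 7.63 CPM in IAA libraries, against 12.7 and 13.5 CPM in untreated libraries.

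Of the target genes of canonical Wnt signalling, 5 of 18 tested were higher after IAA and 13 were not called. In canonical signalling, Wnt ligands or loss of GSK3 activity stabilise β-catenin, which joins TCF and LEF factors at their target genes. None of the 18 fell by edgeR or DESeq2, and over all genes tested edgeR called 0.803% higher and 0.842% lower. Of all 17928 genes tested 8501 lay above 0 and 9080 below. Of the 18 targets 14 lay above 0 and 3 below, and the median was 0.48 on the log2 scale. Without the first untreated library Cdx1 alone of these targets was called.

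Cdx1, a caudal-type homeobox gene and direct Wnt target, had 65.8 and 68.8 CPM in the IAA libraries against 28.5 and 21.5 CPM in the untreated libraries. Its log2 fold change was 1.43 ± 0.18 (SE, edgeR adjusted p = 1.87e-06). Axin2, a scaffold of the β-catenin destruction complex and a widely used readout of the pathway, had 36.9 and 39.2 CPM after IAA and 22.1 and 24.5 CPM untreated. Its log2 fold change was 0.71 ± 0.13 (SE, edgeR adjusted p = 0.00107). Notum, which encodes a secreted enzyme that inactivates Wnt ligands, had 12.8 and 12.0 CPM after IAA and 7.08 and 6.75 CPM untreated, with an edgeR adjusted p of 0.0459. An antisense gene covers 29.4% of the exon bases of Notum, and without a stated strand setting their reads cannot be told apart. Tnfrsf19, a receptor gene that is also a Wnt target, had 15.2 and 17.9 CPM after IAA and 7.61 and 9.23 CPM untreated. The IAA and untreated libraries did not overlap in any of these genes, as in 46.8% of all genes tested.

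Sp5, a zinc finger gene that β-catenin switches on directly, had few counts, 11 and 10 in the IAA libraries against 1 and 1 in the untreated libraries. The ratio of the summed counts was 12.0 with a 95% interval of 2.94 to 106, an exact interval that covers counting error only, and the edgeR adjusted p was 0.00329. Its promoter is shown because the core of the TCF and LEF site, TCAAAG, could be looked for there. The stretch runs from 250 bases before the start of the gene to 50 bases after it, at chr2:70474673-70474972 on the plus strand of GRCm38.p6 (RefSeq), and capitals mark the core, which lies here on the reverse strand as CTTTGA.
Sp5: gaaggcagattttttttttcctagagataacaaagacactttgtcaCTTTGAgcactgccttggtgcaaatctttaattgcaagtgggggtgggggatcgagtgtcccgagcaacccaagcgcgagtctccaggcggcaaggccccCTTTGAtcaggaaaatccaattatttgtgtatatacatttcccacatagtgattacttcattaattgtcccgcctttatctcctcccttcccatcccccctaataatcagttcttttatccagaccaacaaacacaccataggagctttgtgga
The core occurs in it 2 times, 204 and 104 bases before the start. The same letters, on either strand, are in 16.003% of all 32851 promoters of this length, in 14.4% of those of genes tested, in 21 of 108 promoters of genes that rose, in 13 of 101 promoters of genes that fell, and in 5 of the 12 promoters found for the listed Wnt targets. A match is a description of the letters and not a bound site.

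Other Wnt targets were near the limit of detection or did not pass. T, the brachyury gene, had 6 and 3 counts in IAA libraries against 0 and 2 in untreated libraries, and Tcf7 had 105 and 103 CPM against 99.6 and 86.5 CPM. Among 32 tested ligands, receptors and cascade genes of the pathway, 1 rose and 2 fell. The receptor gene Fzd10 rose to 50.3 and 47.2 CPM in IAA libraries, against 29.9 and 31.4 CPM in untreated libraries. The receptor gene Fzd5 fell to 85.6 and 87.6 CPM in IAA libraries, against 128 and 117 CPM in untreated libraries. Porcn, whose product attaches the lipid that Wnt ligands need for secretion, fell to 6.98 and 6.80 CPM in IAA libraries, against 11.9 and 12.8 CPM in untreated libraries.

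Genes of Nodal and activin signalling, ligands of the TGF-β family that act through SMAD2 and SMAD3, included 3 that fell and 0 that rose among 19 tested, with a median of -0.07. Lefty2, a feedback inhibitor that Nodal induces, had 26.3 and 25.97 CPM in IAA libraries and 52.7 and 59.5 CPM in untreated libraries, a log2 fold change of -1.10 ± 0.12 (SE, edgeR adjusted p = 8.55e-08). Its neighbour and relative Lefty1 had 6.78 and 3.30 CPM after IAA against 11.0 and 9.06 CPM untreated and did not pass (edgeR adjusted p = 0.0621). Tdgf1, which encodes the Nodal co-receptor, had 500 and 476 CPM after IAA against 672 and 617 CPM untreated, a log2 fold change of -0.40 ± 0.068 (SE). Inhbb, which encodes an activin subunit, had 10 and 3 counts after IAA against 39 and 40 untreated. Nodal itself had 44.3 and 40.4 CPM after IAA and 49.7 and 39.1 CPM untreated, with groups that overlapped.

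Of 22 tested genes of BMP signalling, which acts through SMAD1 and SMAD5, 1 rose and 1 fell. Id3, an inhibitor of differentiation that BMP induces, fell to 2.99 and 2.89 CPM in IAA libraries, against 8.49 and 7.64 CPM in untreated libraries. Tlx2, a homeobox gene downstream of BMP, rose to 22.1 and 18.1 CPM in IAA libraries, against 8.32 and 6.39 CPM in untreated libraries. Id1, the close relative of Id3, had 14.6 and 10.9 CPM after IAA and 13.1 and 10.8 CPM untreated and did not pass. In 17 tested genes of LIF-STAT3 signalling 0 passed by edgeR or DESeq2, where 3 higher and 2 lower had an unadjusted p under 0.05. With the 4 WT libraries fitted alone, the FGF-ERK and Wnt target lists kept their counts of 4 lower and 5 higher, and the LIF-STAT3 list had 2 higher and 2 lower.

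Among 30 pluripotency genes, all tested, 9 fell and 1 rose, and the median was -0.21. Over all genes tested 0.842% fell and 0.803% rose, and of genes at 100 CPM or more 3.58% were called. Utf1, a chromatin-associated factor of ES cells, had 27.1 and 31.5 CPM in IAA libraries and 71.7 and 74.4 CPM in untreated libraries, on chromosome 7 at 139943789-139945112. Its log2 fold change was -1.32 ± 0.17 (SE, edgeR adjusted p = 1.77e-06). L1td1, an RNA-binding protein gene derived from a LINE-1 element, had the smallest adjusted p of all genes. It had 181 and 171 CPM after IAA against 312 and 322 CPM untreated, a log2 fold change of -0.85 ± 0.074 (SE, edgeR adjusted p = 1.08e-10), on chromosome 4 at 98726734-98738480. Zfp57, a zinc finger protein that keeps methylation at imprinted loci, had 249 and 241 CPM after IAA and 387 and 390 CPM untreated, a log2 fold change of -0.66 ± 0.079 (SE). Zfp42, also called Rex1 and a marker of the naive state, had 385 and 382 CPM after IAA and 535 and 540 CPM untreated.

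The core factors moved little or did not pass. Esrrb, a nuclear receptor of the naive network, had 537 and 517 CPM after IAA against 633 and 637 CPM untreated, a log2 fold change of -0.27 ± 0.072 (SE, edgeR adjusted p = 0.0375). Tbx3 fell by 0.39, Dppa4 by 0.39 and Tdh, the threonine dehydrogenase of mouse ES cells, by 0.52 on the log2 scale. The call of Dppa4 was lost under 10 of 12 alternatives, DESeq2 among them, and those of Esrrb and Tbx3 without each of the 4 WT libraries. Pou5f1, which encodes OCT4, had 654 and 603 CPM after IAA and 736 and 625 CPM untreated. For Sox2 the log2 fold change was -0.16 ± 0.12 (SE) and for Nanog -0.14 ± 0.078 (SE), and neither passed. Dppa3, also called Stella and a gene of germ cells and of the most naive ES cells, was the member that rose, to 20.5 and 14.8 CPM in IAA libraries, against 7.61 and 8.70 CPM in untreated libraries. With the 4 WT libraries fitted alone, 16 of the pluripotency genes fell and 3 rose. Without each WT library in turn 6 fell, and Dppa3 kept its call only without the second IAA library.

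**Figure D2:**
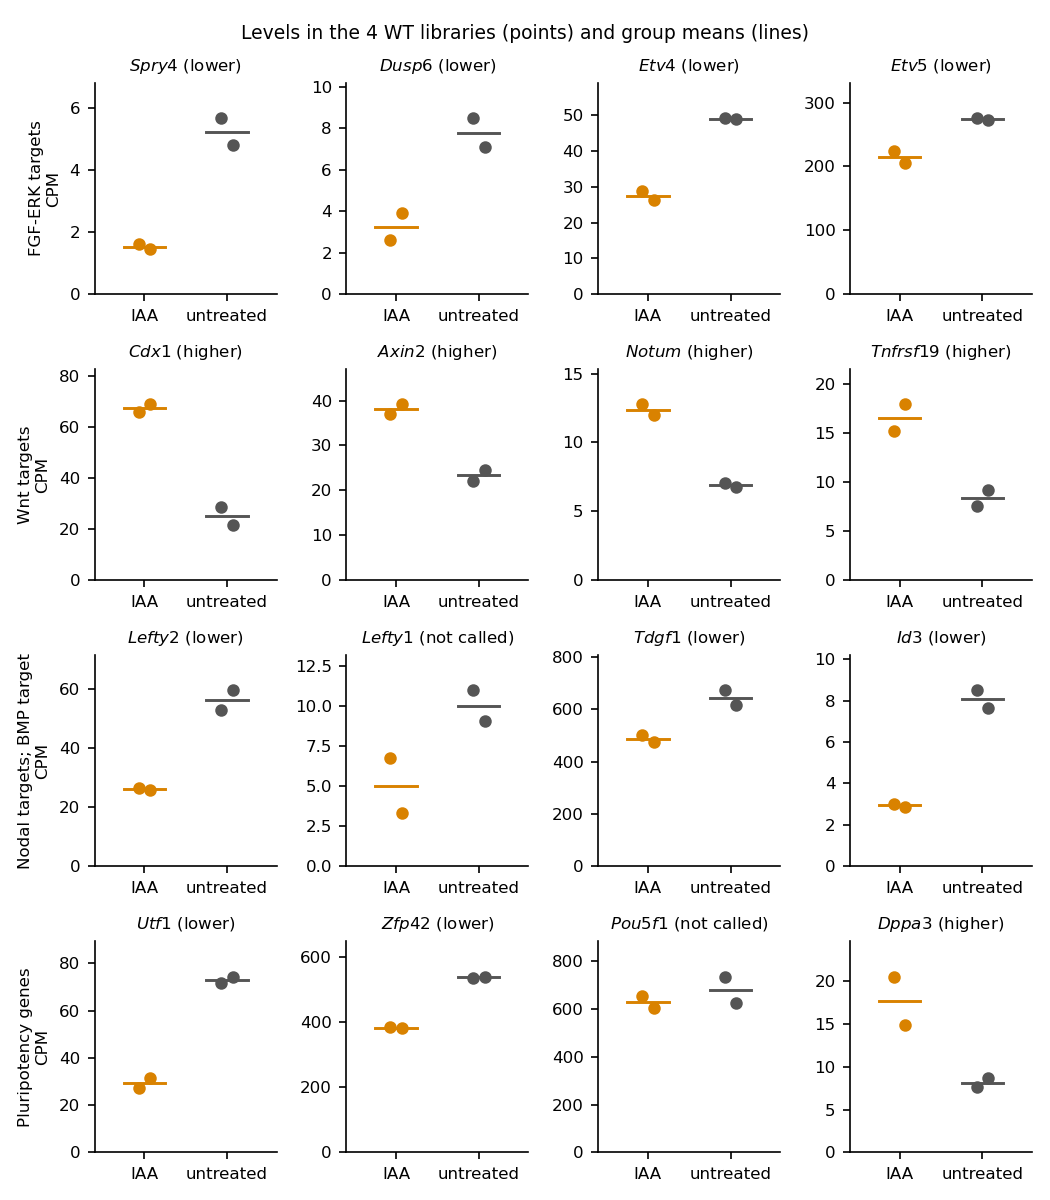
Points are the levels in CPM of 16 signalling and pluripotency genes in each WT library, IAA at the left of each panel and untreated at the right, with lines at the group means and the call in the panel title. The FGF-ERK targets shown lie lower and the Wnt targets shown higher in the IAA libraries, and the groups of Pou5f1 overlap. The targets shown are called members of their lists, where 16 of 20 FGF-ERK targets and 13 of 18 tested Wnt targets were not called.

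Of 20 tested genes of the primed epiblast, the later state that FGF and activin sustain, 5 fell and none rose by edgeR, with a median of -0.24. DESeq2 called 4 of them lower and 1 higher. Over all genes tested edgeR called 0.842% lower and 0.803% higher. Zic2 and Zic5, which encode zinc finger factors, fell by 0.88 and 0.58 on the log2 scale, and Lin28b, an inhibitor of let-7 maturation, by 0.65. Etv4, which is also on the FGF-ERK list, fell as well. The call of Zic5 was lost under 8 of 12 alternatives, DESeq2 among them.

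Few genes of later lineages passed. Of 18 tested mesoderm and primitive streak genes 1 rose, Cdx1, and 0 fell, with 6 other members too low to test. Of 14 tested genes of the retinoid response 1 rose, Aldh1a2, an enzyme that makes retinoic acid, to 7.78 and 6.60 CPM in IAA libraries, against 1.77 and 3.20 CPM in untreated libraries. Of 23 tested Hox genes 1 rose, Hoxb13, to 5.58 and 5.77 CPM in IAA libraries, against 1.95 and 2.49 CPM in untreated libraries. Tfap2c rose by 0.42 on the log2 scale among 13 tested trophectoderm genes. Pdgfrb, on the fibroblast list, rose to 20.9 and 18.8 CPM in IAA libraries, against 10.1 and 8.17 CPM in untreated libraries, while Fstl1 on the same list fell by 0.42 on the log2 scale. Among 16 primitive endoderm genes and 11 2-cell-like genes tested 0 passed by edgeR or DESeq2, where 3 higher and 1 lower of the endoderm genes and 2 higher of the 2-cell-like genes had an unadjusted p under 0.05.

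Amino acid and stress genes moved in both directions. The integrated stress response raises translation of ATF4 when amino acids or folding capacity run short, and ATF4 then induces transporters and biosynthetic enzymes. Of 36 tested genes of this response 2 rose and 3 fell, with a median of -0.08. Slc7a3, a transporter of arginine and lysine, fell to 46.3 and 40.2 CPM in IAA libraries, against 90.3 and 83.8 CPM in untreated libraries, a log2 fold change of -1.01 ± 0.10 (SE, edgeR adjusted p = 4.37e-09). Cth, the cystathionine lyase that makes cysteine, fell by 0.46 and Wars, a tRNA synthetase gene, by 0.27 on the log2 scale. Slc38a2, a transporter of neutral amino acids, rose to 300 and 304 CPM in IAA libraries, against 196 and 211 CPM in untreated libraries. Chac1, a glutathione-degrading enzyme induced by ATF4, rose to 36.3 and 40.0 CPM in IAA libraries, against 25.1 and 24.7 CPM in untreated libraries. Atf4 had 347 and 317 CPM after IAA against 300 and 233 CPM untreated, and Asns, the asparagine synthetase, had 916 and 889 CPM against 990 and 961 CPM, IAA first. Neither passed.

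A single chaperone gene passed in each of the heat shock and unfolded protein response lists. Hspa8, the constitutive cytosolic HSP70, had 1904 and 1890 CPM after IAA against 2279 and 2413 CPM untreated, and was the only member called among 19 tested heat shock genes. Hspa5, the chaperone BiP of the endoplasmic reticulum, had 530 and 536 CPM after IAA against 657 and 655 CPM untreated, and was the only member called among 18 tested genes of the unfolded protein response. The list medians were -0.056 and -0.034, and Hspa8 lost its call in 3 and Hspa5 in 4 of the 4 fits that leave out a WT library.

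Sterol and fatty acid synthesis genes, which SREBP factors induce when cholesterol runs low, included 3 that rose and 0 that fell among 27 tested. Of these members 22 lay above 0, as did 8501 of all 17928 genes tested, and the list's median was 0.16 on the log2 scale. Dhcr7, the last enzyme of one route to cholesterol, had 100.1 and 97.5 CPM in IAA libraries and 73.8 and 76.0 CPM in untreated libraries. Srebf1, which encodes SREBP1, had 151 and 138 CPM after IAA and 115 and 108 CPM untreated. Without either IAA library, or without the first untreated library, 0 of these genes passed, and with the 4 WT libraries fitted alone 8 rose.

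Of 25 tested targets of NRF2, the factor that answers electrophiles and oxidants, 2 fell and none rose by edgeR or DESeq2. In all 19 of them lay below 0, as did 9080 of all 17928 genes tested. Txnrd1, a thioredoxin reductase, fell by 0.31, and Mt2, a metallothionein, by 0.48 on the log2 scale. The exons of Mt2 overlap those of an antisense gene model over 73.5% of their bases, and reads of that pair cannot be told apart here. Gss, the glutathione synthetase, which is not on the list, rose to 121 and 116 CPM in IAA libraries, against 71.8 and 63.8 CPM in untreated libraries, with an edgeR adjusted p of 7.17e-07. The oppositely transcribed neighbour Acss2, a cytosolic acetyl-CoA synthetase, overlaps its exons over 395 bases and rose as well, to 52.9 and 47.4 CPM in IAA libraries, against 31.1 and 34.3 CPM in untreated libraries.

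In glycolysis and hypoxia genes, 1 of 27 tested rose and 1 fell. Slc2a3, a glucose transporter, had 1561 and 1546 CPM after IAA and 1248 and 1252 CPM untreated. Pdk1, a kinase that inhibits pyruvate dehydrogenase, had 43.9 and 44.1 CPM after IAA and 75.6 and 62.0 CPM untreated. Of 25 tested p53 targets 1 rose, Cdkn1a, which encodes the cell cycle inhibitor p21, to 181 and 167 CPM in IAA libraries, against 121 and 110 CPM in untreated libraries. Mdm2, another p53 target, had 102 and 110 CPM after IAA and 99.1 and 101 CPM untreated and did not pass.

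Of 40 tested DNA replication genes 3 fell and none rose by edgeR or DESeq2. The 3 were Pola1, the catalytic subunit of the primase polymerase, which fell by 0.46, Rrm2, a ribonucleotide reductase subunit, by 0.33, and Pcna, the sliding clamp, by 0.30 on the log2 scale. In all 32 of them lay below 0, with a median of -0.11. Mycn, the MYC family member of ES cells, fell to 59.0 and 52.8 CPM in IAA libraries, against 76.1 and 81.2 CPM in untreated libraries. Of 75 cytosolic ribosomal protein genes 0 passed by edgeR or DESeq2 and 1 higher and 3 lower had an unadjusted p under 0.05, with 65 below 0 and a median of -0.08. Of 43 nuclear respiratory chain genes 0 passed by edgeR or DESeq2 and 6 lower had an unadjusted p under 0.05, with 34 below 0 and a median of -0.13. Over all 17928 genes tested 12.7% had an unadjusted edgeR p under 0.05, and 9080 lay below 0. In the fit of the 4 WT libraries alone 6 of the ribosomal protein genes fell and 1 rose, and 5 of the respiratory chain genes fell. No gene passed by edgeR or DESeq2 among 30 tested mitosis genes, 41 ribosome biogenesis genes and 27 imprinted genes, where 3 of the mitosis genes, 0 of the ribosome biogenesis genes, and 1 higher and 3 lower of the imprinted genes had an unadjusted p under 0.05.

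The 12 subunits of Pol II themselves, which the degrons target in the other lines, did not pass in WT cells, with log2 fold changes between -0.62 and 0.20. DESeq2 called 0 of them too, 3 lower had an unadjusted p under 0.05, and the fit of the WT libraries alone called 1 higher and 1 lower. Of 15 tested DNA methylation genes Tet1 was the only one called by edgeR. It encodes an enzyme that oxidises 5-methylcytosine and fell to 253 and 254 CPM in IAA libraries, against 344 and 385 CPM in untreated libraries. DESeq2 did not call it, nor did any of the 4 fits that leave out a WT library. H3f3b, a gene of the replacement histone H3.3, had 375 and 378 CPM after IAA and 515 and 512 CPM untreated. Sf3b3, a subunit of the spliceosome, had 531 and 527 CPM after IAA and 692 and 741 CPM untreated. Ngfr, a neurotrophin receptor gene, rose to 53.7 and 46.6 CPM in IAA libraries, against 25.5 and 24.5 CPM in untreated libraries. Ak4, a mitochondrial adenylate kinase, rose to 206 and 208 CPM in IAA libraries, against 139 and 143 CPM in untreated libraries.

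Of 15 tested interferon response genes Ifitm1 rose by 0.53 and Ddx58, which encodes the RNA sensor RIG-I, fell by 0.73 on the log2 scale. Ddx58 lost its call in each of the 4 fits that leave out a WT library, and Ifitm1 in 3 of them.

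**Figure D3:**
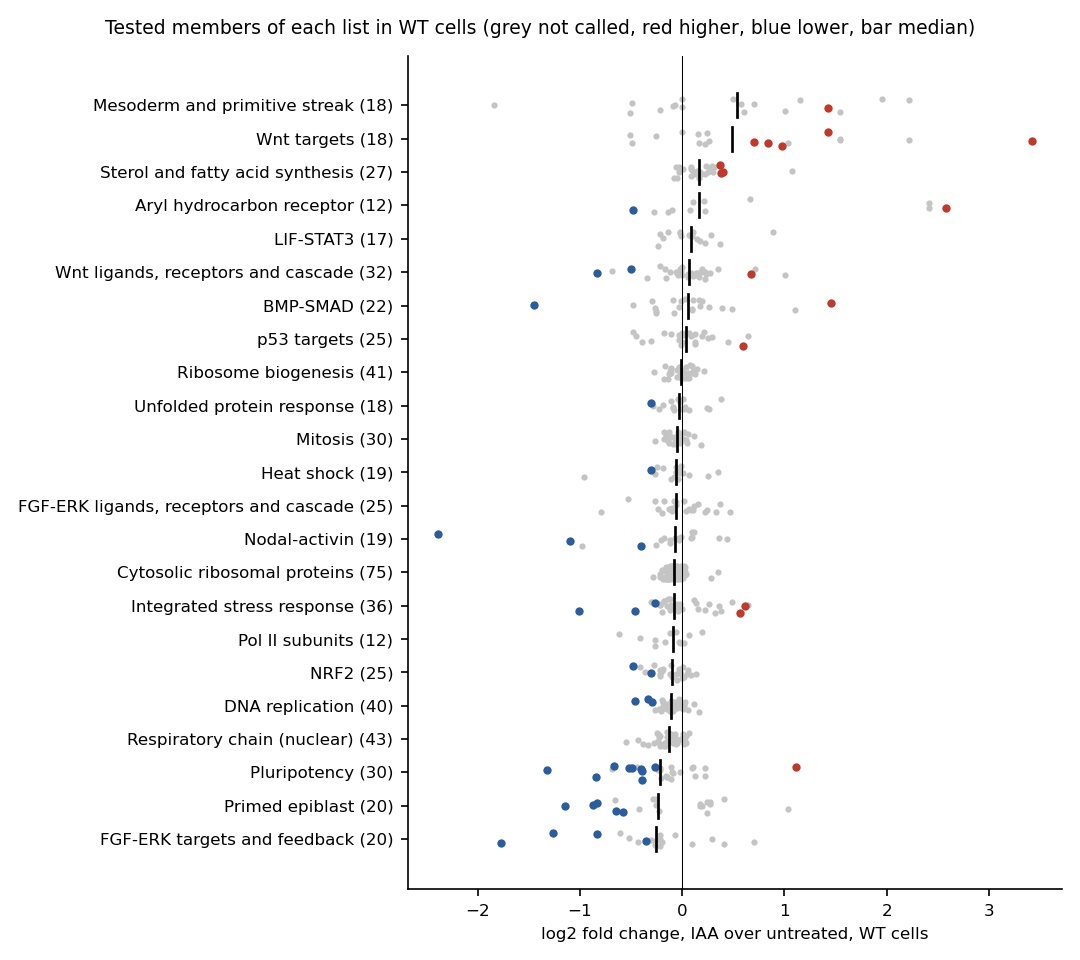
Each point is a tested member of a gene list, placed by its log2 fold change in WT cells, IAA over untreated, with the number tested after each name. Red members were called higher, blue members lower and grey members were not called, and black bars are medians, from 0.53 for mesoderm and primitive streak genes to -0.25 for FGF-ERK targets.

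Targets of the aryl hydrocarbon receptor were looked at gene by gene, since the receptor can bind indoles. Of 12 tested genes of the list 1 rose, Cyp1a1, and 1 fell, Mt2. Cyp1a1, the cytochrome P450 that serves as the readout of the receptor, had 10 and 12 counts in IAA libraries against 3 and 1 in untreated libraries, which is 1.99 and 2.47 CPM against 0.531 and 0.178 CPM. The ratio of the summed counts was 6.29, with an exact 95% interval of 2.14 to 25.1 for counting error only, and the edgeR adjusted p was 0.0132. With each of the 4 WT libraries left out in turn, the edgeR adjusted p was 0.0598 and 0.159 without the first and the second IAA library and 0.0536 and 0.253 without the first and the second untreated library. Cyp1b1, another target, had 1 and 0 counts after IAA and 0 in both untreated libraries. Tiparp, the TCDD-inducible ADP-ribose polymerase, had 26.3 and 32.8 CPM after IAA and 30.6 and 34.3 CPM untreated, and Nqo1, a quinone reductase, had 77.2 and 75.2 CPM after IAA and 91.7 and 92.9 CPM untreated. Neither passed.

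The Cyp1a1 promoter is shown because the receptor's binding core, GCGTG, could be looked for there. It spans chr9:57697363-57697662 on the plus strand of GRCm38.p6 (RefSeq), with the same window as for Sp5 and the core in capitals.
Cyp1a1: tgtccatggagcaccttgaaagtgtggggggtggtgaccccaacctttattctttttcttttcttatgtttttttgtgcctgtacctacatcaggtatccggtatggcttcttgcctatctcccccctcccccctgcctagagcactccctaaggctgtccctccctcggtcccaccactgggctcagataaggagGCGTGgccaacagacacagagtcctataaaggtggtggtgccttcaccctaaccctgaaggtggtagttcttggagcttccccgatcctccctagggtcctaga
The core occurs 1 time, 54 bases before the start. It is a short motif, held on either strand by 32.4% of all promoters, by 61 of 108 promoters of genes that rose and by 57 of 101 of genes that fell, against 53.2% of the promoters of genes tested. The enhancers of Cyp1a1, which lie farther from the gene, are outside this window.

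Cyp1a1 also rose in 12 of the 12 degron lines. Its mean after IAA was 2.23 ± 0.34 CPM in WT cells (SD, n = 2), from 14.5 to 31.6 CPM in 9 degron lines, and under 3 CPM in RPB2, RPB6 and RPB7. The WT response was smaller than the line's response by the test of the difference in 6 lines, RPB1, RPB3, RPB4, RPB5, RPB8 and RPB10, where the edgeR adjusted p ran from 0.000152 for RPB8 to 0.049 for RPB4. In RPB4 and RPB8 the untreated libraries held 0 counts. Cyp1b1 rose in 11 of the lines. Nqo1 rose in 9 of the lines and had a log2 fold change of -0.28 ± 0.094 (SE) in WT cells. Tiparp in contrast fell in RPB2, RPB6, RPB7 and RPB9 and rose in RPB1, RPB5, RPB8 and RPB10. Ahrr, another target, passed only in RPB1, RPB3, RPB5, RPB10 and RPB11, where it rose. The share of all genes called in each line is given below.

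**Figure D4:**
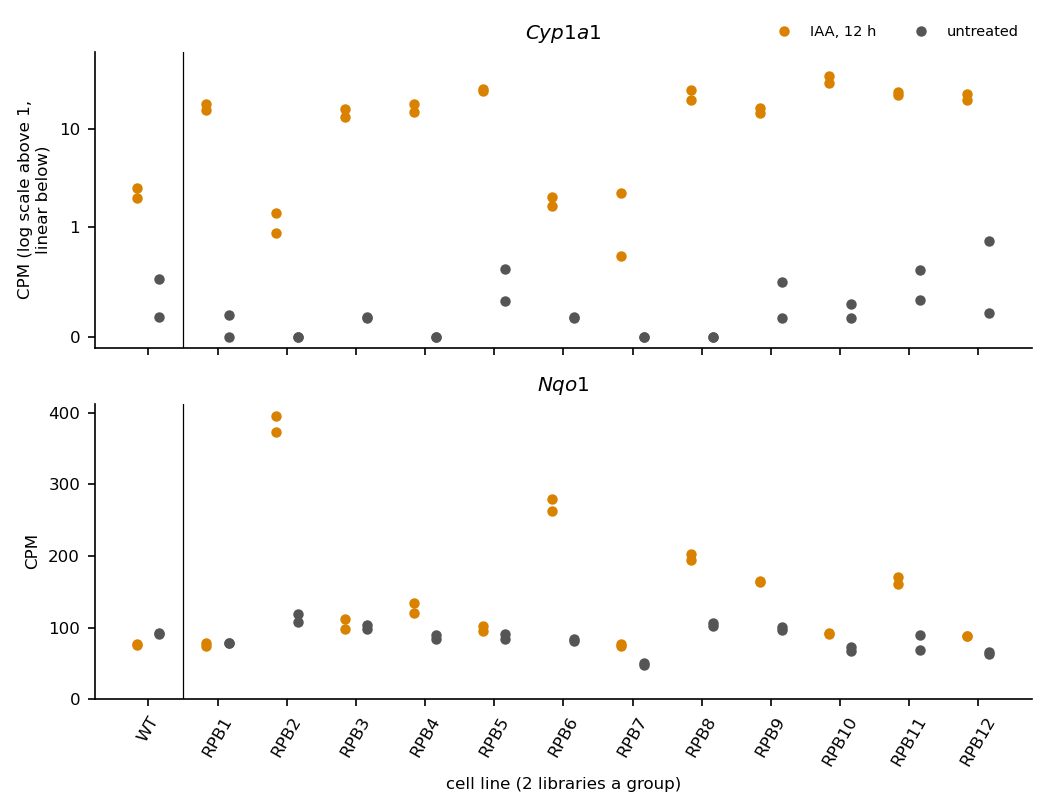
Levels of Cyp1a1 (upper panel, log scale above 1 CPM and linear below it) and Nqo1 (lower panel, linear) in CPM in each library of WT and the 12 degron lines, IAA left of untreated for each line. Cyp1a1 in WT IAA libraries stands at 1.99 and 2.47 CPM, near RPB2, RPB6 and RPB7 and below the other 9 lines, and Nqo1 in WT IAA libraries lies below its untreated libraries.

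The WT response was then set beside that of the degron lines, none of which shares a library with it. RPB4 and RPB12 were the lines with the fewest called genes, 373 and 858, which is 2.08% and 4.79% of genes tested. Of the 295 genes called in WT, 87 were called in the same direction in RPB4 and 0 in the opposite direction. These are 29.5% of the WT list and 23.3% of the RPB4 list. In RPB12 152 were called in the same direction and 1, Chac1, in the opposite direction, which is 51.5% of the WT list and 17.7% of the RPB12 list. In the 10 other lines between 98 and 168 of the WT genes were called in the same direction, and between 27 and 139 in the opposite direction. The share of all genes called in those lines was 66.3% in RPB1, 61.9% in RPB2, 47.7% in RPB3, 59.1% in RPB5, 60.7% in RPB6, 41.3% in RPB7, 61.7% in RPB8, 34.8% in RPB9, 39.4% in RPB10 and 23.7% in RPB11.

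Of the 295 genes, 18 were called in the same direction in 0 of the degron lines and 5 in all 12. The 5 were Spry4, Utf1, Zfp57 and Epb41l4a, which fell, and Cyp1a1, which rose. Called in the same direction in 10 lines or more were 28 of the 151 genes that fell and 8 of the 144 that rose. How many of all genes tested were called in a single direction in 10 lines or more was not counted. These counts alone therefore do not set the WT genes apart from other genes. Of the 18 with no call in the same direction, some were called in the opposite direction, such as Bphl in 4 lines. The 18 also included Vcan, a matrix proteoglycan gene, Slc38a2 and Nod2, a sensor of bacterial peptides, which rose in WT. These genes were named after their values were seen. Of the FGF-ERK genes, Dusp6 fell in 9 lines and rose in 2, and Etv4 fell in 7 and rose in 3. Of the Wnt targets, Axin2 rose in 7 lines and fell in 2, and Cdx1 rose in 6 and fell in 0.

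**Figure D5:**
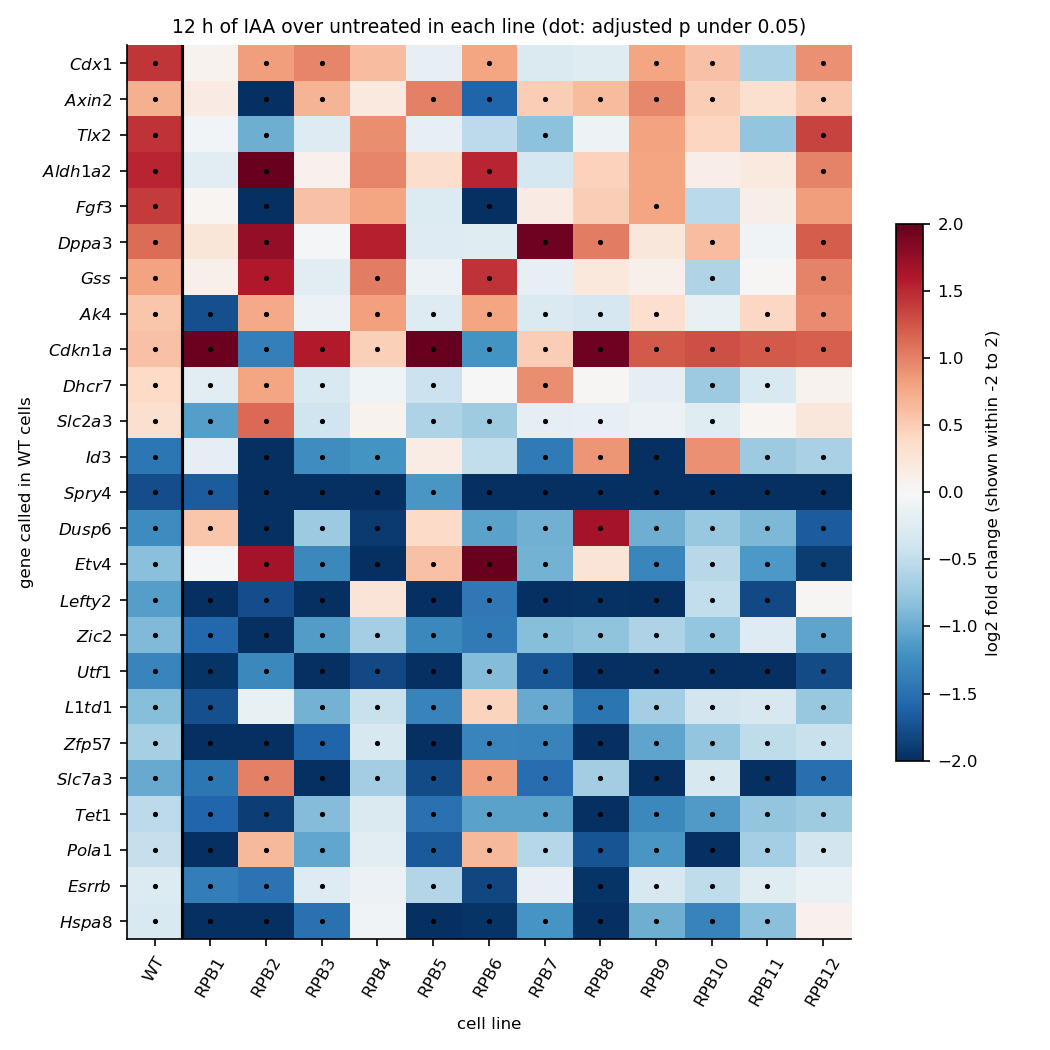
Log2 fold changes of 25 genes called in WT cells (rows) in WT, left of the black line, and in the 12 degron lines, IAA over untreated, with colours limited to -2 to 2 and a dot where the adjusted p is under 0.05. Spry4, Utf1 and Zfp57 are blue with a dot in every line, while Cdx1, Gss and Id3 differ in sign or call between lines.

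The test of the difference itself separated few WT responses from those of RPB4. The difference passed for 51 genes (0.284% of those tested), 20 with the WT response above and 31 below, and 21 of the 51 were called in WT. Slc39a14, a zinc and manganese transporter, had 15.8 and 12.0 CPM after IAA and 11.7 and 12.1 CPM untreated in WT, against 6.46 and 5.11 CPM after IAA and 32.9 and 35.8 CPM untreated in RPB4. The log2 difference, WT minus RPB4, was 2.80 ± 0.28 (SE, edgeR adjusted p = 1.32e-08). Spry4 fell in both, but its untreated level was 5.66 and 4.79 CPM in WT against 38.8 and 32.1 CPM in RPB4, and its level after IAA was 1.596 and 1.44 CPM in WT against 1.94 and 2.25 CPM in RPB4. Its log2 difference was 2.30 ± 0.51 (SE, edgeR adjusted p = 0.0227). Etv4 likewise had a log2 difference of 1.24 ± 0.18 (SE), with log2 fold changes of -0.83 in WT and -2.07 in RPB4. Lefty2 fell in WT and had 107 and 104 CPM after IAA and 79.2 and 95.8 CPM untreated in RPB4, a log2 difference of -1.37 ± 0.16 (SE). Bmp4 and Gja1, which encodes connexin 43, fell in RPB4 and did not pass in WT, with log2 differences of 1.76 ± 0.34 and 1.69 ± 0.28 (SE). Gja1 had 6.18 and 5.98 CPM after IAA and 4.78 and 4.62 CPM untreated in WT. In RPB4 it had 24.3 and 23.9 CPM after IAA and 63.8 and 56.8 CPM untreated. Lama4, a laminin chain gene, had a log2 difference of -2.74 ± 0.65 (SE, edgeR adjusted p = 0.049), and passed in neither line on its own. It had 2.99 and 2.89 CPM after IAA and 5.31 and 6.39 CPM untreated in WT. In RPB4 Lama4 had 1.72 and 1.84 CPM after IAA and only 0.439 and 0.577 CPM untreated.

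The difference from RPB12 passed for 95 genes (0.530%), 60 with the WT response above and 35 below, and 22 of the 95 were called in WT. Of the 36 tested members of the integrated stress response 13 were above in WT and none below by edgeR, with a median log2 difference of 0.46 against -0.00066 over all genes. In 12 of those 13 the RPB12 response passed on its own. Chac1 rose in WT and fell in RPB12, where it had 8.18 and 6.17 CPM after IAA and 20.7 and 24.8 CPM untreated, a log2 difference of 2.28 ± 0.27 (SE, edgeR adjusted p = 2.93e-07). The WT call of Chac1, at an edgeR adjusted p of 0.0343, was lost without each WT library in turn. Stc2, a secreted glycoprotein gene induced in this response, had 6.78 and 6.80 CPM after IAA and 5.84 and 4.62 CPM untreated in WT, against 1.74 and 2.29 CPM after IAA and 8.96 and 9.66 CPM untreated in RPB12. Trib3, an inhibitor of AKT, had a log2 difference of 1.29 ± 0.23 (SE), and Psat1, a serine synthesis enzyme, one of 0.45 ± 0.088 (SE). Slc39a14 and Cntfr, a receptor subunit gene of the LIF family, had log2 differences of 2.78 ± 0.26 and 2.73 ± 0.66 (SE) from RPB12. In RPB12 Cntfr had only 0.348 and 0.705 CPM after IAA and 5.12 and 3.16 CPM untreated. Cdkn1a rose in both, by 0.59 in WT and 1.19 in RPB12 on the log2 scale, a difference of -0.60 ± 0.13 (SE).

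The level that each gene reached was also placed among the 12 untreated degron lines. After IAA, WT cells lay above the highest untreated line for 78 of the 144 genes that rose (54.2%), against 13.7% of all genes, and below the lowest untreated line for 80 of the 151 that fell (52.98%), against 12.2% of all genes. The calls used these same WT libraries, so the shares describe levels and test nothing. Untreated WT cells themselves lay above that range for 12.0% of all genes and below it for 9.50%. Cdx1 averaged 67.3 CPM in WT cells after IAA, where the untreated lines spanned 9.67 to 48.0 CPM. Dppa3 averaged 17.7 CPM in WT cells after IAA, where the untreated lines spanned 0.462 to 13.03 CPM. Utf1 averaged 29.3 CPM in WT cells after IAA and 73.0 CPM untreated, and both lay below the untreated lines, which spanned 106 to 275 CPM. Axin2, Lefty2 and Etv4 in contrast stayed within the range of the untreated lines after IAA.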

How the data were processed

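The authors deposited raw counts per gene for the RNA-seq libraries. The submitters' processing notes name STAR, Bowtie2, featureCounts, SAMtools, cutadapt 1.18, DESeq2 and deepTools, and the mouse and fly builds mm10 and dm6, without saying which step used which. The annotation release, the strand setting and how multi-mapping reads were counted were not stated there. Of the count columns 64 match a sample and 4 match none and were not used. Symbols and mm10 coordinates came from a gene annotation that named 55154 of 55335 IDs. Fly spike-in counts were not analysed here.

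Genes were tested with edgeR 4.0.16 under R 4.3.3 (TMM scaling, filterByExpr, quasi-likelihood F-test) over all 52 libraries of the 12 h experiment, 26 groups of 2, so that the lines share one estimate of the spread (26 residual degrees of freedom, median biological coefficient of variation 7.04%). The 17928 genes kept hold 99.8% of the counts, and p-values were adjusted over them by Benjamini-Hochberg. CPM are counts relative to the TMM-scaled library size, and SE is the absolute log2 fold change over the square root of F. WT libraries hold 4366545 to 5207199 counts, which limits the precision of genes under 1 CPM.

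Differences from RPB4 and RPB12 were planned, and those from the 10 other lines were added after the data were seen. Members, lists and tests were chosen with earlier results of these data known. Genes were named by a rule: among called genes of at least 5 CPM whose groups do not overlap, the 15 highest and 15 lowest fold changes, the 10 smallest adjusted p and the 10 highest levels, then called list members, up to 4 others of each list, all members of the signalling target lists, and the 5 highest and lowest differences from each line. Not all were printed, and some called list members are not reported here. Alternatives were RLE and total-count scaling, scaling on mitochondrial mRNAs, no filter on low counts, fits of the lines compared alone, DESeq2 1.42.0, a replicate block, each library left out, and, chosen after the data were seen, the 12 libraries of WT, RPB4 and RPB12.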

Additional observations from a re-analysis of the deposited data

Results flagged for a closer look

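The WT response differed from a degron line's response, by the test of the difference in edgeR, for 51 genes against RPB4 and 95 genes against RPB12. Both comparisons use the same WT libraries. What made each difference was not tested.

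Against RPB4, the log2 difference (WT minus RPB4) was 2.80 for Slc39a14, 2.30 for Spry4, 1.76 for Bmp4, 1.69 for Gja1, 1.25 for Pdk1 and 1.24 for Etv4. It was below 0 for other named genes, at -2.74 for Lama4, -1.37 for Lefty2, -0.83 for Nqo1, -0.49 for Hspa5, -0.49 for Rrm2, -0.44 for Fgf4 and -0.43 for Sf3b3. Lama4 had only 0.439 and 0.577 CPM in the untreated RPB4 libraries.

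Against RPB12, the log2 difference (WT minus RPB12) was 2.78 for Slc39a14, 2.73 for Cntfr, 2.58 for Stc2, 2.28 for Chac1, 1.56 for Gja1, 1.37 for Bmp4, 1.29 for Trib3, 1.10 for Pdk1, 1.08 for Ddx58, 1.07 for Etv4, 0.73 for Slc38a2 and 0.45 for Psat1. It was -1.12 for Lefty2, -0.72 for Nqo1, -0.60 for Cdkn1a, -0.52 for Rrm2, -0.44 for Hspa5, -0.43 for H3f3b and -0.41 for Sf3b3. Cntfr had only 0.348 and 0.705 CPM in the RPB12 IAA libraries.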

How the results depend on the processing

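RLE or total-count scaling, no filter on low counts and DESeq2 kept the counts of called genes within 1.5 times of 295. Under total-count scaling 57.0% of calls were higher after IAA, against 48.8% in the main result, and 59.6% without the second IAA library. Scaling on the mitochondrial mRNAs left 4 calls in WT, 2 higher and 2 lower, with differences called for 1 gene against RPB4 and 3 against RPB12; the cause was not tested. Fits of the lines compared alone called 1060 genes in WT (526 higher, 534 lower), 149 against RPB4 and 501 against RPB12. Fits of the WT, RPB4 and RPB12 libraries called 1019 (506 higher, 513 lower), 215 and 404. The replicate block gave 195 calls in WT, 94 higher, with 26 against RPB4 and 54 against RPB12. The labels give replicates only a number. The deviations of replicate 1 from replicate 2 in IAA and in untreated libraries had a correlation of 0.093 in WT. In the other lines it was -0.285 to 0.0917. Whether libraries of the same number had a common origin was not tested.

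Leaving out 1 WT library gave 89 to 105 calls in WT, 43 to 53 higher and 36 to 55 lower, with 20 to 36 against RPB4 and 35 to 51 against RPB12. Of the 68 called genes named, Utf1 alone was called under all 12 alternatives, and 49 lost the call without at least 1 library. Genes that did not pass changed sign in some fits. With each library left out in turn the log2 fold change ran between -0.45 and 0.31 for Bmp4, 0 and 3.26 for Cyp1b1, -0.12 and 0.29 for Id1, -0.29 and 0.024 for Tiparp, -0.23 and 0.12 for Nodal, where the fit without the second IAA library gave 0.0043, and -0.23 and 0.016 for Pou5f1. Without the second untreated library Id1 stood at -0.039, and on the mitochondrial scale Mdm2 at -0.0010. Of genes under 1 CPM 0.173% were called, and the median size of those 5 calls was 3.58 on the log2 scale.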
